A study of Mus musculus with 24 samples.

Results

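The peaks described here are stretches of messenger RNA enriched by an antibody against N6-methyladenosine (m6A) in B16-OVA cells, a C57BL/6 mouse melanoma line that carries ovalbumin, with and without knockdown of Fto. All 10811 peaks of the shFto list and all 8479 peaks of the shNC list were taken, 19290 of the 29140 m6A peaks of the series. Peaks were matched where their exonic blocks shared at least 1 base on the same strand. Genes were matched by the name given to each peak. The shFto cells carried a hairpin against Fto and the shNC cells a control hairpin. Both were grown with puromycin, and both were given DMSO, the vehicle, for 48 h before m6A-seq. The third m6A list, from shNC cells given 5 µM Dac51, a compound known in the labels by that code, is used only for values set beside named peaks. Each list came from 1 antibody library called against its own input library, so the peaks have no replicate error and no test was made between them. RNA-seq of 3 shFto and 3 shNC libraries of the same cell type gave a separate readout, though the share of genes with a peak differed with RNA level. The shFto line used here (the series names more than one), its clonality and the separate culture of the libraries are not stated in the labels, and an RNA p-value therefore reflects library-to-library spread, which may be technical.

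m6A is written on nascent messenger RNA by a complex of METTL3, METTL14 and WTAP with partners such as RBM15, ZC3H13 and CBLL1 (HAKAI). It is removed by FTO and ALKBH5 and is read by YTH-domain proteins that act on RNA decay, translation and splicing. Its usual sequence centre is GGAC, and the mark lies mostly near stop codons, in 3′ untranslated regions and in long internal exons. FTO also removes the methyl group of m6Am, a related mark on the first transcribed base next to the cap, and antibodies against m6A bind both. An m6A-seq peak is a region of enriched RNA, not a methylated base.

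Sequences from RefSeq (GRCm38.p6) show what the peaks at transcript starts cover. These are the first 30 transcribed bases, written 5′ to 3′, of 6 genes whose start lay under an shFto peak that overlapped an shNC peak. They are examples of the genes in which GGAC, in capitals, falls within those bases.
Jun: gttgagctcaggctggataaGGACtcagag
Cpeb4: GGACtcagccgcggctgcgGGACctgggca
Rbbp6: gcggccgctatGGACccctgaccccgcggg
Ajuba: ggaaatccttgcgcGGACacctcaacccgg
Pfkfb2: ggagcccGGACtacttcagtctgtctgcca
Fbxw7: accctGGACtgcaccattctgtgttcaagg
Jun, an AP-1 transcription factor, starts at chr4:95052193-95052222 on the minus strand, and its start peak had a fold enrichment of 7.55 in shFto and 3.82 in shNC. The start peak of Cpeb4, which binds polyadenylation elements, had 17.1 and 13.5. That of Rbbp6, a ubiquitin ligase, had 19.4 and 16.8. The remaining values were 16.3 and 6.89 for Ajuba, 10.5 and 5.21 for Pfkfb2, which makes the glycolytic activator fructose-2,6-bisphosphate, and 23.1 and 17.4 for Fbxw7, a ubiquitin ligase subunit. Fbf1, whose first 30 bases also hold GGAC, had the lower value in shFto, 17 against 17.8.

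Over an annotated start lay 136 shFto peaks and 69 shNC peaks. Of these, 52 and 10 had no overlapping peak in the other list. In the first 50 transcribed bases, GGAC was found on the sense strand in 22.4% of the starts under shFto peaks and in 15.6% on the opposite strand. Under shNC peaks the shares were 31.6% and 9.21%, and at all starts of RNA-tested genes 20.5% and 20.9%. The longer GGACT, which contains GGAC, was on the sense strand of 9.52% and 10.5% of the starts under shFto and shNC peaks, against 5.34% of all RNA-tested starts. The first base was A in 24.5% of the starts under shFto peaks, 25% under shNC peaks and 28.0% of all RNA-tested starts. A match says only that these letters occur in the window.

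Peaks of both lists also covered 3 annotated microRNA hairpins. The mature microRNAs are shown with the seed, bases 2 to 8, in capitals.
mmu-miR-671-5p: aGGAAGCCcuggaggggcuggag
mmu-miR-671-3p: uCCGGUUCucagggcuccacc
mmu-miR-8115: cCGCAAUAgcaacaagggcucu
mmu-miR-5114: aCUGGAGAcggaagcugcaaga
The hairpin of miR-671 (chr5:24592114-24592211) lies under a peak named Chpf2, a chondroitin synthesis factor, with a fold enrichment of 5.79 in shFto and 4.71 in shNC. That of miR-8115 (chr5:122682597-122682715) lies under a peak of P2rx7, an ATP-gated channel, with 7.52 and 4.72. The hairpin of miR-5114 (chr19:44303171-44303231) lies under a peak of Scd2, a fatty acid desaturase, with 3.46 and 2.18. A second entry of the same hairpin under its own name had 1.80 and 2.66, so its 2 entries went opposite ways. Their 4 seeds are all different. In the shFto list alone, peaks covered the hairpins Mir6340, Mir678, Mir6363 and that of miR-3618. Fragments of the host RNA and of the hairpin cannot be told apart in these peaks.

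The knockdown was present in the RNA libraries. Fto, which encodes the demethylase, was at 31.7, 33.5 and 28.3 CPM (edgeR's counts per library size, with the size scaled by TMM) in the shFto libraries and 107, 108 and 91.8 in the shNC libraries. The groups did not overlap (log2 fold change -1.72, SE 0.0979, edgeR quasi-likelihood adjusted p = 1.6e-10). Its own m6A peak, on chr8 at 91409408-91409497 in shFto and 91409348-91409766 in shNC, had a fold enrichment of 2.16 over 90 bases and 1.80 over 419 bases. RNA library totals ran from 11152404 to 19665589 counts. On plain library totals, without TMM, the 7 melanocyte markers were all measured and summed to 17720.7 to 18720.8 CPM in shFto and 14208.3 to 14818.7 in shNC. Of 10 immune cell markers 8 were at 0 in all 6 libraries, Ptprc, Cd3e and Cd8a among them, and the list summed to at most 0.109 CPM. In a longer list of 18 immune genes 3 passed the filter on low counts. Coro1a, an actin regulator of leukocytes, was at 1.28, 0.959 and 0.658 CPM in shFto and 0.0759, 0.0581 and 0 in shNC, without overlap (edgeR adjusted p = 0.000822). Itgax (0.121) and Cd68 (0.929) were not called, and 0 of the 18 genes had a peak in either list. Marker sums of fibroblasts were 1.02 to 2.89 and 3.68 to 3.89 CPM in shFto and shNC, of endothelial cells 5.35 to 10.5 and 3.50 to 4.98, and of epithelial cells 1.88 to 2.73 and 1.09 to 2.24. The part of these differences in the peaks was not tested, and fewer cells of a type cannot be told apart from less RNA per cell in these bulk libraries.

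The shFto list was the longer one, and its peaks were wider and more enriched. It held 10811 peaks in 6471 genes, against 8479 in 5305 genes for shNC. The peaks covered 3948.57 kb and 2873.2 kb of exonic sequence, with median widths of 299 and 271 bases. The fold enrichment, the peak caller's ratio of antibody over input reads, had quartiles of 3.00, 6.19 and 13.2 in shFto and 2.81, 5.05 and 10.3 in shNC. A log10 false discovery rate of -5 or less was given to 73.6% of the shFto peaks and 68.8% of the shNC peaks. The read depth of these 4 libraries is unknown, and its part in the length of a list was not tested.

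Most peaks were in both lists. Of the shFto peaks, 7205 (66.6%) overlapped an shNC peak, and of the shNC peaks 7521 (88.7%) overlapped an shFto peak. The remaining 3606 shFto peaks (33.4%) and 958 shNC peaks (11.3%) had no partner. Unpartnered peaks were weaker and narrower in both lists. Their median fold enrichment was 3.105 in shFto and 2.7 in shNC, against 8.57 and 5.33 for partnered peaks, and their median widths were 150 and 91 bases against 390 and 300. The strict false discovery rate was reached by 37.4% of the unpartnered shFto peaks and 8.77% of the unpartnered shNC peaks. Of the unpartnered peaks, 52.8% in shFto and 65.03% in shNC lay in a gene that had a peak elsewhere in the other list. With both lists cut to the same number of peaks, ranked by p-value, 1710 (20.2%) and 1362 (16.1%) had no partner. With 2-fold enrichment and the strict false discovery rate required in both lists, the numbers were 2379 and 197.

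**Figure D1:**
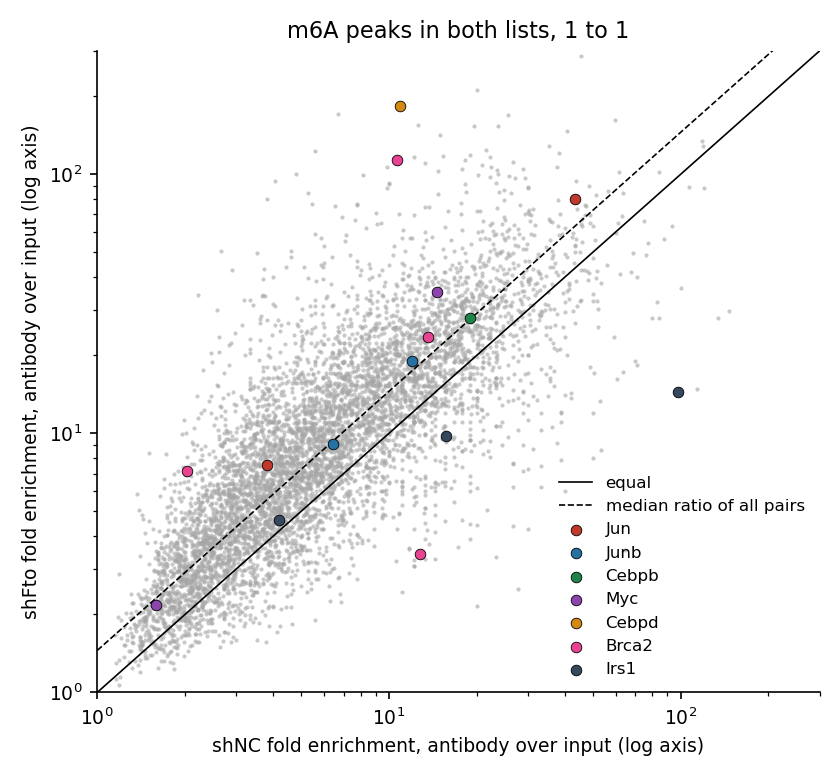
Fold enrichment of the 6517 pairs of peaks that overlapped 1 to 1, shNC on the x axis and shFto on the y axis (log axes, 1 grey point a pair, 1 library a group). The dashed line, the median ratio of 1.45, runs above the line of equal values, and both Jun peaks lie close to it while the strongest Irs1 peak and the Cebpd peak lie far from it on opposite sides.

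Where 1 peak of each list overlapped only the other, enrichment was usually higher after the knockdown. There were 6517 such pairs in 4604 genes, and the shFto value was higher in 5178 (79.5%), lower in 1328 and equal in 11. The median log2 ratio was 0.54 (1.45-fold), with quartiles of 0.10 and 1.01. At 1.5-fold or more, 3090 pairs (47.4%) were higher in shFto and 389 (5.97%) lower. Once the median shift was subtracted from every pair the split was nearly even, with 1324 pairs (20.3%) higher and 1223 (18.8%) lower. The shFto peak was also the wider one in 71.9% of pairs and the narrower in 18.2%. Across the pairs the log2 fold enrichments of the 2 libraries had a Pearson correlation of 0.80 and a Spearman correlation of 0.81. This is across peaks, which are not independent replicates and share genes and base composition.

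**Figure D2:**
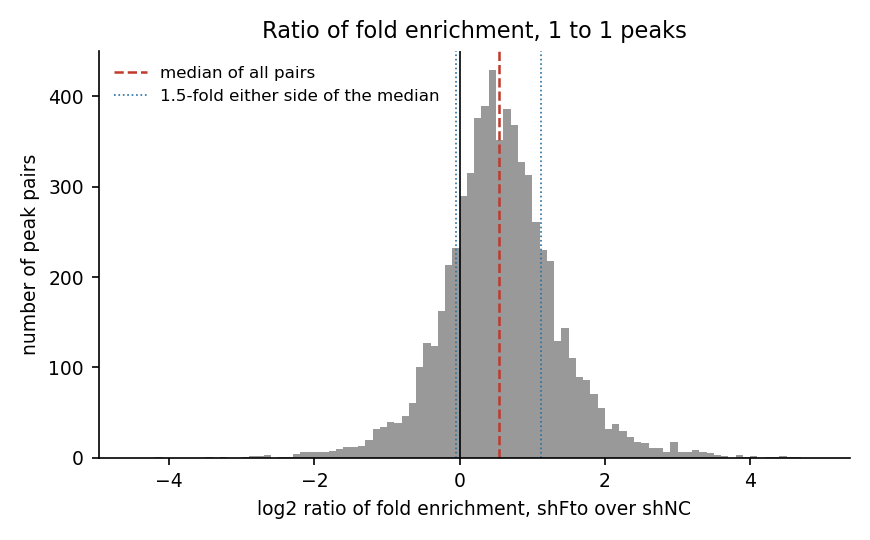
Number of 1 to 1 pairs (y axis) by log2 ratio of fold enrichment, shFto over shNC (x axis). The distribution has a single peak with its median at 0.54 (dashed), and 20.3% and 18.8% of pairs lie beyond 1.5-fold above and below that median (dotted).

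The shift was seen at all levels of RNA, and the spread was widest in scarce RNAs. In 4 equal bins of the pairs by the gene's RNA level, from low to high, the median log2 ratio was 0.56, 0.56, 0.55 and 0.51, and the standard deviation over pairs was 1.10, 0.78, 0.66 and 0.55. Pairs lower in shFto by 1.5-fold numbered 202, 83, 64 and 30 in the same bins. By peak width in shFto, the narrowest bin had a median of 0.23 and the other bins 0.60, 0.68 and 0.66. Peaks of the same gene did not share a ratio more than peaks of different genes. In 1338 genes with at least 2 pairs the standard deviation within genes was 0.80, against 0.81 over the same 3251 pairs. Of 962 genes with exactly 2 pairs, 503 (52.3%) had both on the same side of the overall median. In Fzd1, a Wnt receptor, the 3 pairs had log2 ratios of 1.39, -1.07 and -0.63, and all 3 of its shNC values lay on the grid described next.

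Many high fold enrichments fell on a regular grid, which bears on every extreme value below. Between 10 and 100, 37.0% of shFto values lay within 0.06 of a whole multiple of 0.8571, where an even spread of values would put 14.0%. In the shNC list 37.4% lay on multiples of 1.1117, against 10.8%. A ratio falls on such a grid where its denominator is the same from peak to peak. Among unpartnered peaks of 10-fold to 100-fold the share on the grid was 88.1% in shFto and 95.7% in shNC, and among partnered peaks 27.6% and 31.2%. The steps differ between the lists, so a peak on the same multiple in both has the lower fold enrichment in shFto. Pairs with an shNC value on the grid (n = 768) had a median log2 ratio of 0.19, at a median of 11.5 CPM. By 1.5-fold 33.7% of these were higher in shFto and 23.3% lower. Pairs with an shFto value on the grid (n = 955) had a median of 0.77, at a median of 18.2 CPM. Of those, 57.9% were higher and 7.23% lower by 1.5-fold. In the 5094 pairs with neither value on the grid, at a median of 53.8 CPM, the median was 0.54, with 46.8% higher and 3.75% lower by 1.5-fold.

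By position along the RefSeq gene span, peaks of both lists were concentrated toward the 3′ end. Within 2 kb of the gene's 3′ end lay the centres of 40.3% of the placed shFto peaks and 36.4% of the shNC peaks. The share was 47.0% for unpartnered shFto peaks and 35.8% for unpartnered shNC peaks. Within 1 kb of the 5′ end lay 5.11% and 5.53% of the peaks, and 11.5% of the unpartnered shNC peaks. Pairs near the 5′ end were less shifted than others. Their median log2 ratio was 0.27 (n = 227), against 0.52 near the 3′ end (n = 2353) and 0.56 elsewhere (n = 3619). After centring, 11.9% of the 5′ pairs were 1.5-fold higher and 33.9% lower. In the 47 pairs where both peaks covered an annotated start the median was 0.27, and in the 72 where the shFto peak did, 0.40. Pairs near the 5′ end were also weaker, with a median shFto fold enrichment of 4.72 against 7.75 and 9.05 in the other classes, and of 4 bins of all pairs by enrichment the weakest had a median ratio of 0.36. The part of enrichment in the difference by position was not tested. Exons, stop codons and untranslated regions were not used here.

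At the level of genes, 4991 had a peak in both lists, 1480 in shFto alone and 314 in shNC alone. With both lists cut to equal length, 749 genes had a peak in shFto alone and 564 in shNC alone, and with the strict false discovery rate and 2-fold enrichment 106 had one in shNC alone. Of the 11718 genes tested by RNA-seq these classes held 41.9%, 11.7% and 2.31%, and 55.9% had a peak in either list. The share of genes with a peak depended on RNA level in both lists. In 5 equal bins by RNA level it was 37.4% in the lowest and 60.9% in the fourth for shFto, 29.7% and 51.0% for shNC, and 53.5% and 43.3% in the top bin. The number of peaks in a gene was higher in shFto for 2703 genes, the same for 3214 and lower for 868. Restricted to genes with peaks in both lists, it was higher in 1223 and lower in 554. These numbers also depend on how peaks are divided. There were 469 shFto peaks that each overlapped 2 or more shNC peaks, and 187 shNC peaks that each overlapped 2 or more shFto peaks.

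**Figure D3:**
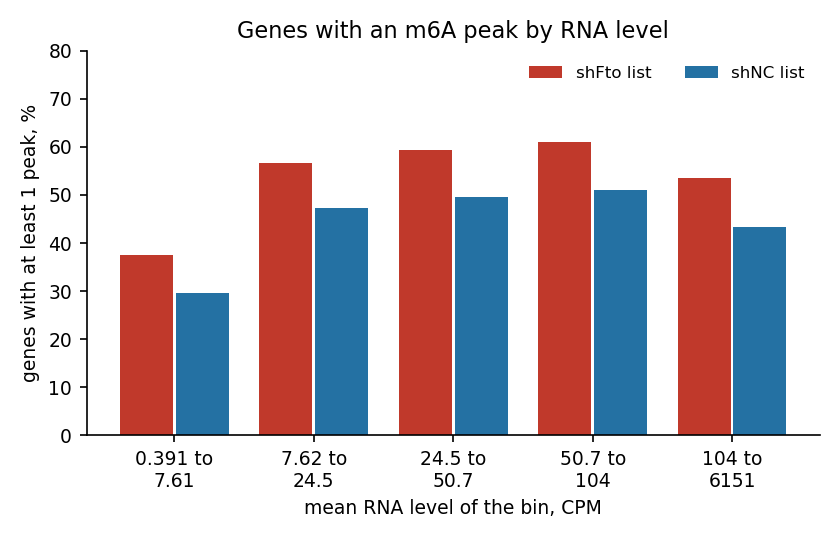
Share of RNA-tested genes with at least 1 m6A peak (y axis, %) in 5 equal bins of genes by mean RNA level in CPM (x axis), for the shFto and shNC lists. In every bin the shFto bar is the taller, and in both lists the fourth bin is the highest, at 60.9% and 51.0%.

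The 5 largest gains in number of peaks were in Brca2, Dst, Casc5, Cenpe and Neat1. Brca2, the homologous recombination factor, had 11 peaks in shFto and 4 in shNC, with 7 in the Dac51 list. Dst, a cytoskeletal linker, had 9 and 3. Casc5, a kinetochore scaffold, had 6 and 1, and Cenpe, a kinetochore motor, 7 and 2. Neat1, the long noncoding RNA of paraspeckles, had 7 and 2, and some of its regions share bases within the list, as 120 shFto peaks (1.11%) do. The RNA of Brca2 (0.47, adjusted p = 0.00145), Dst (0.32, 0.00738) and Cenpe (0.36, 0.00512) was higher in shFto by edgeR and passed under all 10 alternatives. That of Casc5 (0.35, 0.0112) was not called without shFto replicate 1 (0.065) or without shNC replicate 3, and that of Neat1 was not called (0.07, 0.557).

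Losses were fewer. Cenpf, another kinetochore protein, had 8 peaks in shFto and 12 in shNC, Plec, the linker plectin, 6 and 10, and Zfp281, a zinc finger factor, 1 and 5. Bsn, a presynaptic scaffold, had 4 and 7 and was tied with other genes at this loss. The greatest loss was in Tchh, a hair follicle protein, with 8 shNC peaks (chr3:93443613-93447853, fold enrichment 11.1 to 36.7) and 0 in shFto and in Dac51. Tchh had 0 counts in all 6 RNA libraries, and all 8 of its values lay on the grid. Genes at 0 counts in all RNA libraries held 42 peaks in shFto and 52 in shNC, in 30 genes of each list. The RNA of Cenpf (0.07, adjusted p = 0.556) and Bsn (-0.40, 0.155) was not called. That of Plec (-0.34, 0.00675) and Zfp281 (0.31, 0.012) was, but not without shFto replicate 1 (0.0608 and 0.0788), nor, for Plec, without shNC replicate 2.

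Single peaks were named if they had 1 gene, a log10 false discovery rate of -5 or less in the lists that hold them and a gene level of at least 10 CPM in both RNA groups, which left 4249 pairs in 3125 genes. They were chosen by their fold enrichments, so these are descriptions. The highest ratio was in Zfp90, a zinc finger repressor (chr8:106424005-106424334), with 123 in shFto and 5.56 in shNC. Pcmtd1 had 34.3 and 2.22. Tnrc6b, which links Argonaute to RNA silencing, had 75.4 and 6.54 (chr15:80929281-80929821). One Brca2 peak (chr5:150541023-150541532) had 114 and 10.7. Smad1, a transducer of BMP signals, had 43.7 and 4.45 (chr8:79339294-79339741). Adcy9, an adenylyl cyclase, had 56.6 and 5.84 (chr16:4287938-4288476). On opposite strands of 1 region of chr9, Dopey1, a Golgi trafficking factor, had 68.6 and 6.89 and Pgm3, an enzyme of UDP-GlcNAc synthesis, 76.3 and 7.78, and their reads cannot be told apart without knowing the strand setting. Of these 8 pairs, 6 had the shFto value and 4 the shNC value on the grid, and the shFto values of Zfp90 and Brca2, over 100, could not be judged.

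The Dac51 library lay between the other libraries for 7 of these 8 peaks, at 9.86 for Pcmtd1 to 36.6 for Brca2, and above both for Adcy9 at 66.2. These peaks were chosen as extremes of shFto over shNC, which by itself favours a further library lying between. Dac51 and shFto also share the shNC library as control, so the values are given side by side only. RNA was called higher in shFto for Pcmtd1 (0.66, edgeR adjusted p = 0.00039) and Brca2 of these genes. Dopey1 was called too (0.46, 0.00988), but not without shFto replicate 1 (0.0784). For Zfp90 (0.19, 0.435), Tnrc6b (0.03, 0.847), Smad1 (0.13, 0.564), Pgm3 (0.24, 0.191) and Adcy9 (0.30, 0.114) the adjusted p did not pass. The log2 ratios of enrichment of the 8 peaks were 3.28 to 4.47.

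The lowest ratios were smaller in size, from -2.81 to -1.99. Nup210, a nuclear pore glycoprotein, had a fold enrichment of 3.32 in shFto and 23.3 in shNC (chr6:91013067-91013336). Irs1, the adaptor of the insulin receptor, had 14.4 and 97.8, on chr1. Tulp4 had 5.98 and 40.0, and Itpkc, an inositol trisphosphate kinase, 7.89 and 38.9. Tagap1 had 29.7 and 146, which was the highest value of the shNC list. Endov, a ribonuclease that cuts at inosine, had 7.47 and 33.3, Hoxd13, a homeobox factor of limb patterning, 9.20 and 37.8, and Plekhm3 13.3 and 52.8. Of the 8 shNC values, 6 lay on the grid and 0 of the shFto values did, and Tagap1, over 100, could not be judged. In the Dac51 list, Irs1 (42.2), Tulp4 (10.6) and Endov (15) lay between the other libraries, Nup210 (3.11), Tagap1 (27) and Plekhm3 (13.1) below both, and Hoxd13 (67.6) above both. Of these genes only Tulp4 was called by RNA-seq (0.63, edgeR adjusted p = 0.000237), in the direction opposite to its peak.

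**Figure D4:**
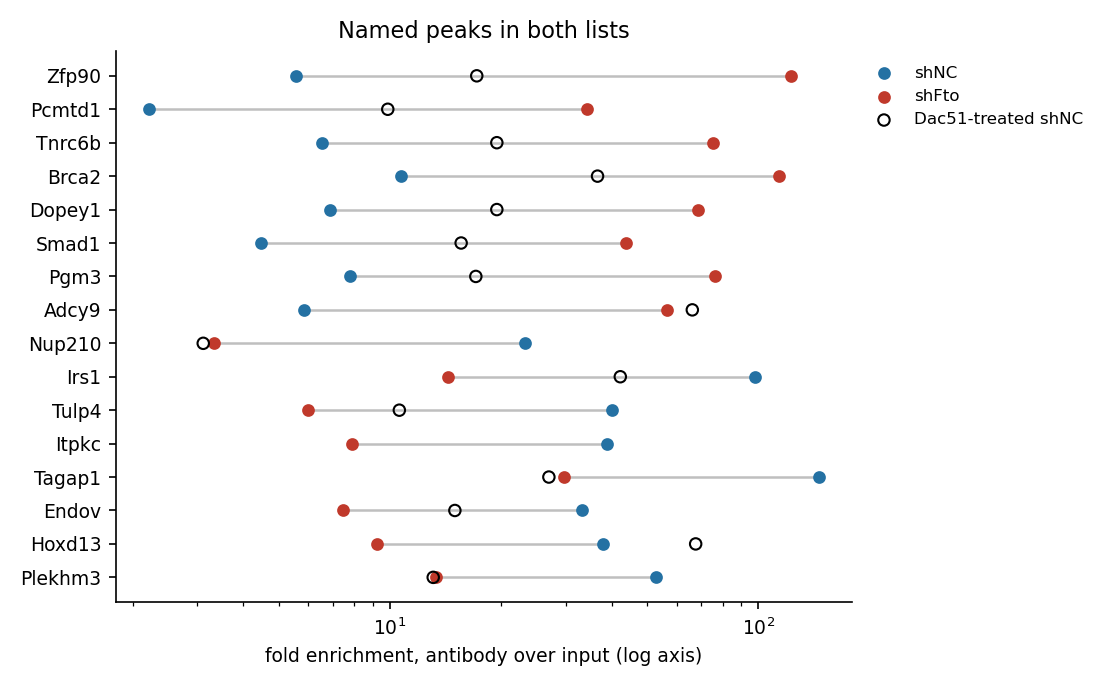
Fold enrichment (x axis, log) of the 8 peaks with the highest and the 8 with the lowest ratio of shFto to shNC, 1 point a library, with the Dac51-treated shNC library as open circles. Open circles lie between the filled ones for 7 of the upper 8 peaks, and Itpkc has no open circle because the Dac51 list holds no overlapping peak.

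Among peaks of the shFto list alone, 1145 met the rule, and the 8 with the highest fold enrichment were named. They were in Acer2, a ceramidase of the Golgi (84.9), Zmym1 (37.7), Abca12, a lipid transporter (36.9), Trpm1, a cation channel of melanocytes (30.9), Urb2, a ribosome biogenesis factor (29.1), Rragc, a GTPase upstream of mTORC1 (28.9), Kbtbd8, a ubiquitin ligase adaptor (28.3) and Zfp60 (28.3). All but Rragc lay on the grid, and 5 of the 8 genes had a peak elsewhere in the shNC list. Trpm1 RNA was at 259, 259 and 249 CPM in shFto and 62.4, 54.0 and 65.8 in shNC, and these groups did not overlap (log2 2.08, edgeR adjusted p = 4.39e-12). Abca12 (0.53, 5.94e-05) and Rragc (0.36, 0.00209) were also higher in RNA. Kbtbd8 passed at 0.0423 but missed under 8 of 10 alternatives, the removal of any 1 library among them, up to 0.123 without shFto replicate 1.

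In the shNC list alone 66 peaks met the rule. The highest were in Bcl9, a partner of beta-catenin (30), Adar, the editing enzyme of double-stranded RNA (27.8), Tanc2, a synaptic scaffold (16.1), Fem1a, a ubiquitin ligase receptor (15.6), and Mkl2, a coactivator of serum response factor (15.6). Prepl (6.83), Rgs3, a regulator of G protein signalling (5.72), and Ankrd24 (4.79) followed. All 8 genes had another peak in the shFto list. The first 5 except Tanc2 lay on the grid. Rgs3 RNA fell by 1.37 on the log2 scale (edgeR adjusted p = 7.26e-07), from 30.9, 28.1 and 37.6 CPM in shNC to 11.7, 10.9 and 14.4 in shFto. Bcl9 (-0.45, 0.0242) and Mkl2 (0.28, 0.0415) were called in opposite directions, and lost the call without single libraries. Bcl9 missed without shFto replicates 1 and 2 and shNC replicate 1 (up to 0.171), and Mkl2 without shFto replicates 1 and 3 and shNC replicates 1 and 3 (up to 0.175).

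AP-1 and C/EBP genes encode transcription factors of growth and stress responses, and most of their peaks were higher in shFto, as in the lists as a whole. Of 14 listed genes 11 had a peak in each list, against 41.9% of all tested genes. The 13 pairs had a median log2 ratio of 0.66, with 8 higher and 2 lower by 1.5-fold, and after centring 3 and 2. Over all pairs the shares were 47.4% and 5.97%, and after centring 20.3% and 18.8%. Jun had its main peak at the same coordinates in both lists (chr4:95049810-95050555), at 80.2 in shFto and 43.6 in shNC, and its start peak at 7.55 and 3.82. The Dac51 list gave 1 peak over both regions, 2472 bases wide, at 103. Junb had 19 and 12 at the first and 9.07 and 6.41 at the second of its peaks. Cebpb had 28.0 and 19.0 (chr2:167689837-167690283) and in shFto a further weak peak at 2.11. The ratios of Jun (0.88 and 0.98), Junb (0.66 and 0.50) and Cebpb (0.56) were all within 1.5-fold of the median shift. Cebpd stood apart at 183 and 10.9 (4.07), with 46 to 104 RNA counts a library. Fosb (6.43 and 18.9, the latter on the grid) and Atf3 (3.52 and 6.11) were lower in shFto.

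The RNA of these factors went in both directions. Jun was at 52.1, 47.1 and 60.5 CPM in shFto and 85.1, 72.7 and 83.0 in shNC, without overlap (-0.59, SE 0.0997, edgeR adjusted p = 0.000194). Jund (-0.74, 3.06e-05) and Atf3 (-1.04, 0.00635) also fell, Fos rose (0.96, 0.00843), and Junb (0.11, 0.583) and Cebpb (-0.37, 0.107) were not called. Cebpb passed without shFto replicate 3 (0.0161) and without shNC replicate 2. Batf was called (0.56, 0.0243) but not without shFto replicate 2 (0.082). Over all genes tested, 15.9% were called higher and 16.9% lower.

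Some of the genes that write and read the mark had peaks, writers at about the share of all tested genes. Among writers, 6 of 10 genes had an shFto peak and 5 an shNC peak. Of all tested genes, 55.9% had a peak in either list. All 9 writer pairs, which lay in 4 genes, were higher in shFto (median 0.66), 5 by 1.5-fold and 2 after centring. Over all pairs these shares were 79.5%, 47.4% and 20.3%. Wtap, the regulatory subunit, had peaks of 23.8 and 11.7, 7.01 and 4.45, and 4.16 and 3.75 in shFto and shNC. Rbm15, which recruits the complex to RNA, had 9.14 and 3.89, 16.8 and 12.8, and 29.5 and 28.3. Cbll1 had 17.1 and 6.78. This 17.1 and the 4.45 of Wtap lay on the grid. Of 10 listed readers, 4 had an shFto peak and 4 an shNC peak. Ythdf3 had 37.2 and 20.5 and Ythdf1 6.75 and 4.65, while Ythdc1 had a peak in shFto alone and Igf2bp3 in shNC alone. Ythdf3 RNA rose (0.60, edgeR adjusted p = 2.01e-05) and Ythdf1 RNA fell (-0.34, 0.00341).

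Of 24 listed glycolytic enzymes and transporters, 9 had an shFto peak and 8 an shNC peak, 10 in either list, against 55.9% of all tested genes. The 11 pairs had a median of 0.30, with 2 higher and 1 lower by 1.5-fold and 0 and 2 after centring. Over all pairs the shares were 47.4% and 5.97%, and after centring 20.3% and 18.8%. The glucose transporter Slc2a1 had 9.23 and 4.98, and the lactate exporter Slc16a3 6.09 and 3.15 at its stronger peak. Slc16a1, another lactate transporter, had 1.93 and 3.47 at one peak and 2.09 and 1.52 at the other. The main peak of hexokinase 2 (Hk2) had 8.64 and 8.21. Aldoa and Aldoc had a peak in shFto alone and Gapdh in shNC alone, and those of Aldoa (1.13) and Gapdh (1.40) were near equal enrichment in antibody and input. In RNA, 3 of the 24 were called higher and 14 lower in shFto, against 15.9% and 16.9% of all tested genes. Slc16a1 was among those higher (0.56, edgeR adjusted p = 0.000166) and Hk1 among those lower (-0.59, 1.33e-05).

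The MYC network and interferon-stimulated genes had the highest list medians among lists of at least 10 pairs. In the MYC network all 12 pairs were higher in shFto, with a median of 1.09, 8 by 1.5-fold, and 6 after centring. Over all pairs these shares were 79.5%, 47.4% and 20.3%. Of these pairs 5 are peaks of 1 gene, Mga, a large partner of MAX, with the highest at 30.1 and 5.02. Myc itself had 35.0 and 14.6 at its main peak (chr15:61989522-61990211) and 2.18 and 1.59 at the other, and Max 11.4 and 3.31. In the interferon list all 19 pairs were higher, with a median of 0.87, 13 by 1.5-fold, and 8 after centring. Trim25, a ligase of antiviral sensing, had 24.8, on the grid, and 5.00. The receptor subunit Ifnar2 had 35.6 and 8.61, and Ifit3 30.1 and 7.59. The kinase Eif2ak2 (PKR) had 56.1 and 20.6 at its strongest peak. Without pairs on the grid the medians were 0.97 over 11 pairs and 0.69 over 15, and the AP-1 and C/EBP list, at 0.77 over 10, was then above the interferon list. In RNA, 0 of 10 MYC network genes were called higher and 1 lower, and 4 and 2 of 19 interferon genes, against 15.9% and 16.9% of all tested genes.

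**Figure D5:**
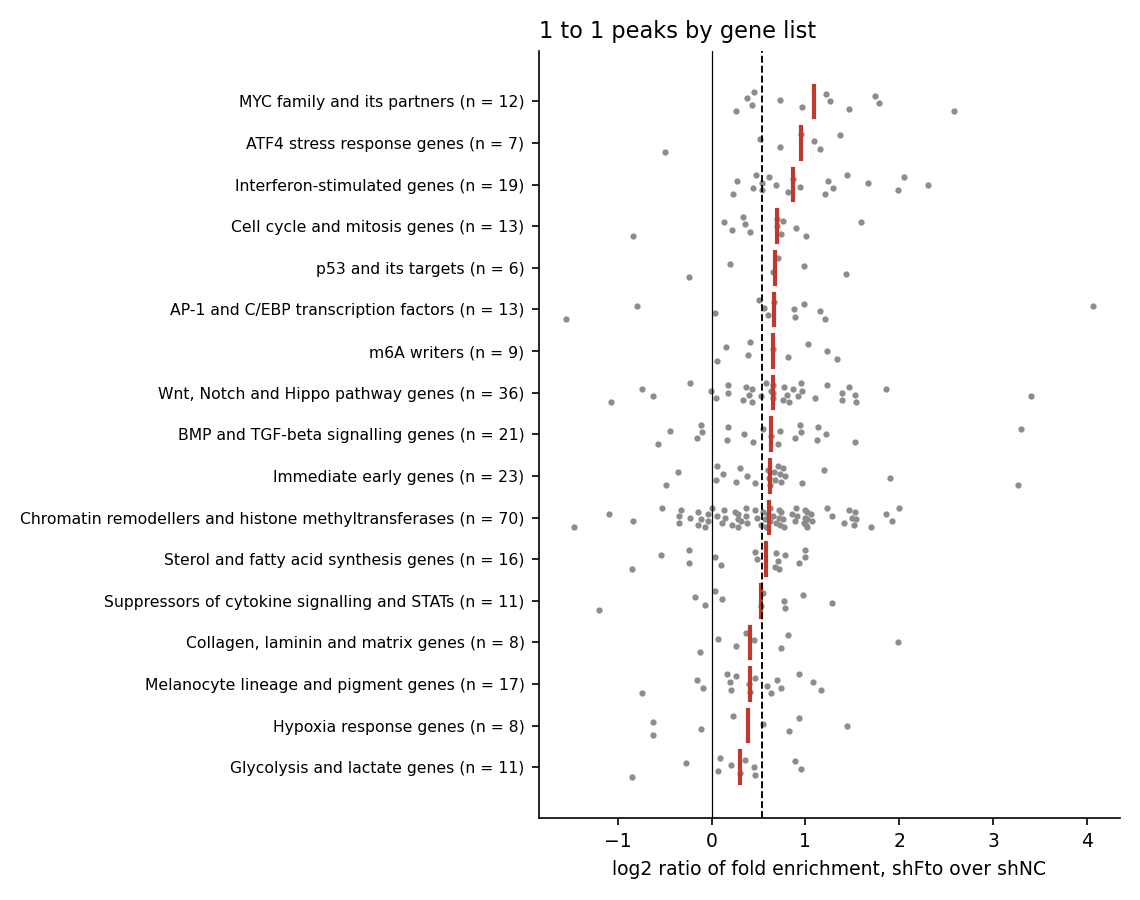
Log2 ratio of fold enrichment, shFto over shNC (x axis), for 1 to 1 pairs of the gene lists with at least 5 pairs (grey points), with each list's median in red and the median of all 6517 pairs dashed. The MYC network is highest at 1.09 and glycolysis lowest at 0.30.

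Of 17 tested genes of the melanocyte list 11 were called higher in RNA and 0 lower, against 15.9% and 16.9% of all tested genes. The 17 pairs had a median log2 ratio of 0.41, against 0.54 over all pairs. By 1.5-fold 7 were higher and 1 lower, against 47.4% and 5.97% of all pairs, and after centring 1 and 3, against 20.3% and 18.8%. Rab27a, which tethers melanosomes, had 8.78 and 3.90, and the receptor Mc1r 12.9, on the grid, and 6.10 at the higher of its ratios. Mitf, the lineage transcription factor, had 8.17 and 4.28, 3.89 and 2.58, and 3.14 and 2.72. Tyrosinase (Tyr) had 15.3 and 13.6, while its RNA rose by 1.37 on the log2 scale (edgeR adjusted p = 4.84e-10). Pax3 was lower in shFto at one peak (3.63 and 6.09).

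In Wnt, Notch and Hippo genes, 36 pairs in 16 genes had a median of 0.66. By 1.5-fold 22 were higher and 3 lower (47.4% and 5.97% of all pairs), and after centring 8 and 4 (20.3% and 18.8%). Axin2, a feedback inhibitor of Wnt signalling, had 59.1 and 5.56, both on the grid, and its RNA rose (0.79, edgeR adjusted p = 0.000182). Cyr61, a target of YAP, had 14.8 and 4.09, and rose as well (0.51, 0.00182). In BMP and TGF-beta genes, 13 of 18 were called higher in RNA and 0 lower, against 15.9% and 16.9% of all tested genes. Their 21 pairs had a median of 0.63, with 5 higher and 5 lower after centring, against 20.3% and 18.8% of all pairs. Beside Smad1, the receptor Bmpr2 had 14.2 and 6.11 and 9.22 and 4.21, and the inhibitory Smad7 was lower at 9.43, on the grid, and 14.0. Of immediate early genes, 18 of 21 had peaks in both lists, against 41.9% of all tested genes, with a median of 0.62 over 23 pairs. Klf2 had 117 and 12.2, and Egr1 29.1 and 7.78 at one peak but 9 and 11.5 at the other.

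Chromatin regulators held more pairs than any other list. The 25 remodellers and histone methyltransferases had 94 shFto and 85 shNC peaks, and 70 pairs with a median of 0.61, of which 12 were higher and 12 lower after centring, against 20.3% and 18.8% of all pairs. Chd8 had 70.6 and 17.7 at one peak and 19.3 and 11.3 at another. Nsd1, a methyltransferase of histone H3, showed both directions, with 15.6 and 5.46 at one peak and 36.3 and 100 at another. Kmt2c, a methyltransferase of enhancers, was lower at one (2.44 and 5.22) and higher at another (15.9 and 8.79). The opposite extreme was formed by housekeeping messages. Of 32 cytosolic ribosomal protein genes 5 had an shFto peak and 1 (Rps2) an shNC peak, with 0 pairs. Of 22 respiratory chain genes 1 (Uqcrc2) had a peak, in shFto. Over all tested genes, 55.9% had a peak in either list. In RNA 22 of the 32 and 8 of the 22 were called lower and 0 higher, against 16.9% and 15.9% of all tested genes.

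RNA changes were set beside the peak classes, since RNA-seq was not used to choose them. Of 1369 tested genes with a peak in shFto alone, 274 (20.01%) were called higher and 179 (13.1%) lower, with a median log2 fold change of 0.04. Of 271 with a peak in shNC alone, 42 (15.5%) were higher and 56 (20.7%) lower, with a median of -0.08. Genes with peaks in both lists had 17.8% and 16.1%, and genes with none 13.1% and 18.4%. Among genes whose strongest pair was 1.5-fold higher after centring, 17.7% were higher in RNA and 12.9% lower, and where it was lower 14.3% and 17.4%. Across 6465 pairs the ratio of enrichment and the RNA fold change had a Spearman correlation of 0.06, across peaks that share genes. The share of genes with a peak differed with RNA level, as given above, and the part of RNA level in these classes was not tested. Without shFto replicate 1, which gave 2468 calls in place of 3841, the higher and lower shares were 13.0% and 7.57% for shFto alone, 9.56% and 13.6% for shNC alone, and 11.6% and 10.3% for both. Without shNC replicate 1 the share higher was 10.3% for shNC alone.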

How the data were processed

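Per the labels, exomePeak made the deposited m6A lists, 1 for each antibody library. Columns for a fold enrichment ratio, a p-value and 2 scores (log10 of the p-value and of the false discovery rate) are named per the file headers. RNA-seq was deposited as raw counts per gene, per the file headers. m6A-seq used fragmented polyadenylated RNA and an antibody kit, and RNA-seq total RNA, both with a stranded kit, per the labels' protocols. Tools named without roles, per the submitters' processing notes, are STAR 2.7.0f, Bowtie2 2.3.5, MACS2 2.1.3, Picard, deepTools and Trim Galore 0.6.0, with the build mm10. The exomePeak version, its thresholds and the strand setting are not given in the sources used here.

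Overlaps used exonic blocks on the same strand, and ratios used peaks matched 1 to 1. RNA counts of 3 against 3 libraries were fitted by edgeR 4.0.16 (R 4.3.3; quasi-likelihood, TMM, default filter), with Benjamini-Hochberg adjustment over 11718 genes and a threshold of 0.05. Fold values on a grid were found by scanning step sizes on values between 10 and 100. Positions and start sequences came from RefSeq GRCm38.p6, which placed 94.9% of peaks in both lists. Fto, Jun, Junb and Cebpb, the 8 highest and 8 lowest pairs, the 8 highest unpartnered peaks of each list, the 5 largest gains and losses of peaks, and up to 4 members of each of 25 gene lists were to be named, and other list members were named after their values were seen. Members and lists were chosen with earlier results of these data known. Scripts in Python 3.11.15 and R were tested on simulated data. Alternatives are listed in the closing section.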

Additional observations from a re-analysis of the deposited data

How the results depend on the processing

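The median log2 ratio was 0.54 to 0.58 with other overlap rules, the stricter threshold and equal list lengths. These settings reuse the fold enrichments of the same libraries, so they cannot show whether the shift is an offset between libraries. Centring on the median removes the shift by construction and is no test of its direction. A change of 2-fold in place of 1.5-fold was met by 25.2% of pairs higher and 2.82% lower, centring on the median left 20.3% and 18.8%, and pairs off the grid had 3.75% lower. The last 2 settings were chosen after seeing the data. Unpartnered shFto peaks numbered 2379 with the stricter threshold and 1710 at equal list lengths, and unpartnered shNC peaks 197 with the stricter threshold. Genes with a peak in shNC alone numbered 106 with the stricter threshold, 564 at equal list lengths and 178 at 10 CPM or more. Those in shFto alone numbered 749 at equal list lengths. At equal list lengths a gene can leave the shFto list and so enter the other class.

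RNA-seq calls numbered 3841, and 3964 with library totals, 3740 with DESeq2, 4036 with no filter and 3736 with the replicate block. Same-numbered libraries did not deviate together (correlations 0.014, 0.037 and -0.017), so the numbers were not taken as pairs. With 1 library left out, calls ran from 2468 to 4423 (higher 1222 to 2123, lower 1246 to 2300). The shares higher and lower ran from 11.6% to 19.96% and 10.3% to 19.0% for genes in both lists. They ran from 13.0% to 22.9% and 7.57% to 15.9% for shFto alone, and from 9.56% to 18.5% and 13.6% to 27.3% for shNC alone. The low ends came without shFto replicate 1. Of single RNA values under these settings, 3760 kept their direction and side of the threshold, 222 lost a call, 86 gained one and 159 moved without a call. With 1 library a group the peaks have no replicate check, and the depth of the m6A libraries is unknown.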

Other observations

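In lists not described above, ATF4 stress response genes had 7 pairs with a median log2 ratio of 0.96. Of these 5 were 1.5-fold higher in shFto and 0 lower, and after centring 2 and 1. Over all pairs the shares were 47.4% and 5.97%, and after centring 20.3% and 18.8%. Psat1, of serine synthesis, had 4.98 in shFto and 1.93 in shNC, and Chac1, which degrades glutathione, 24.3 and 11.4. Hypoxia response genes had 8 pairs with a median of 0.39, with 3 higher and 2 lower by 1.5-fold (47.4% and 5.97% of all pairs). Adm (adrenomedullin) had 25.6 and 9.44, and the oxygen sensor Egln1 4.46 and 6.85. The p53 genes had 6 pairs with a median of 0.68. Of these 5 were higher in shFto, against 79.5% of all pairs, and after centring 1 was higher and 1 lower by 1.5-fold. Both inhibitors of p53 were higher before centring, Mdm4 with 25.4 and 9.44 and Mdm2 with 13.5 and 6.84. Matrix and integrin genes had a median of 0.41 over 8 pairs, led by Itga6 with 44.8 and 11.3, whose RNA fell (-0.49, edgeR adjusted p = 0.000167). Sterol and fatty acid genes had a median of 0.58 over 16 pairs, with 0 higher and 4 lower after centring (20.3% and 18.8% of all pairs). Lss had 3.66 and 1.84, and the elongase Elovl6 2.94 and 5.28. Cd274, which encodes the checkpoint ligand PD-L1, had 10.8 and 3.56 over an exon junction of chr19:29384105-29385679, and its RNA was not called (0.44, 0.098).

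Peaks over the same region on opposite strands were found for 225 shFto peaks (2.08%) and 133 shNC peaks (1.57%). Of the 114 such region pairs in shFto, 84 had fold enrichments within 1.5-fold of each other, and of the 67 in shNC 54 did. Without them the median log2 ratio over 6394 pairs was 0.54.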
